A study of Mus musculus with 2 samples.

Results

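The genes of the synaptic vesicle and of regulated exocytosis were compared between siCPEB1-transfected and siControl-transfected Neuro2a cells. The set holds 47 genes, which were chosen by symbol from 6 roles: the synaptotagmins with Doc2b, the proteins of the vesicle membrane and surface, the SNARE proteins with their cofactors, the Rab proteins with rabphilin, the priming and active zone proteins, and the endocytosis proteins. All 47 were on the array, and 120 probe sets carried the symbol of 1 of them and no other. The array held 18161 genes with 34945 such probe sets in all. Neuro2a is a mouse neuroblastoma cell line. In the siCPEB1 culture, siRNAs against the coding region of Cpeb1, which encodes a protein that binds the cytoplasmic polyadenylation element of mRNAs, were transfected for 24 h, and the siControl culture received a control siRNA for the same time. From each culture 100 ng of total RNA was measured on 1 Affymetrix array. Neither group has a replicate, so the values describe 2 arrays of 1 tumour cell line, no p-value can be given and the spread between cultures is not known.

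In neurons, transmitter is stored in small vesicles that dock at the active zone, are primed, and fuse with the plasma membrane when calcium enters. Fusion is driven by the pairing of a SNARE protein of the vesicle with SNARE proteins of the plasma membrane, calcium is sensed by synaptotagmins, and the vesicle membrane is then taken back by clathrin-dependent endocytosis. Many of the same proteins serve the release of dense-core granules in neuroendocrine cells and in tumour cells derived from the sympathetic lineage. The arrays measured RNA, and neither vesicles nor release were measured.

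The arrays gave a signal for each probe set on a linear intensity scale, which the authors computed with MAS5. The median signal over all probe sets was 21.6 in siCPEB1 and 21.0 in siControl, and the ratios below are log2(siCPEB1/siControl) after each array was divided by its own median, so a positive ratio means higher in siCPEB1. To pass the signal filter, a probe set had to reach the median of one array and the 25th percentile of the other. For counts of genes each gene was represented by 1 probe set. "Past 2-fold" means a ratio above 1 or below -1. Cpeb1 itself, the target of the siRNAs, had 38.5 in siCPEB1 and 302 in siControl, which was 8.08-fold lower. The hybridization controls, added in equal amounts, had a mean ratio of -0.17 with an SD of 0.075 over 18 probe sets, and the poly-A controls had one of -0.22 with an SD of 0.185 over 24. Ratios were not scaled to these controls, so ratios below 0 of about this size lie at the offset of the controls. Of 15 markers of neuroblastoma and sympathetic neurons, 12 reached the array median in at least 1 array, and Nefl, Nefm and Th were below it in both. The signals of these 15 markers summed to 20601 in siCPEB1 and 15782 in siControl. Gata3, Isl1 and Phox2a were past 2-fold higher in siCPEB1, which is 25% of the 12 that passed the filter, beside 4.56% of all genes. Chgb, Dbh and Chga lay just under 2-fold, with ratios of 0.997, 0.978 and 0.925. Of the 12, 10 (83.3%) had ratios above 0, beside 50.5% of all genes, and 2 below. The 2 were Gata2 (416 in siCPEB1 and 584 in siControl) and Stmn2 (2080 and 2556), neither past 2-fold. The sums of the other marker lists were 1499 and 1613 for fibroblasts (4 of 9 genes at the median in an array), 127 and 79.1 for glia (1 of 7), 137 and 97.9 for haematopoietic cells (2 of 10) and 211 and 101 for endothelium (2 of 8), with siCPEB1 given first. Among these markers Col1a2 (309 in siCPEB1 and 42.3 in siControl), Vwf (77.6 and 18.0, at least 3.59-fold) and Tyrobp (22.8 and 9.62, at least 1.06-fold) passed the filter with ratios past 2-fold higher, and Pdgfrb (26.9 and 97.1) was past 2-fold lower. The part of these marker shifts in the results below was not tested.

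Of the 47 genes, 33 passed the signal filter at their representative probe set and 14 did not. Among the 33, 6 were past 2-fold higher in siCPEB1 (Syt17, Syn2, Syngr3, Sv2c, Snap25 and Vamp1) and 1 was past 2-fold lower (Syt4). The 6 make 18.2% of the 33, whereas 4.56% of all 11546 genes that passed were past 2-fold higher, and the 1 makes 3.03% against 3.91% of all genes. The genes were chosen with earlier results of these data known, so these shares are not independent of the choice. The median ratio of the 33 was 0.27, beside 0.01 over all genes, and their ratios had an SD of 0.71, beside 0.60 over all genes. The median depended on the filter. It was 0.14 with the array median required in both arrays (all genes -0.002) and 0.14 with no filter (all genes 0.02). Counted over probe sets, 77 of the 120 passed, 11 of the 77 (14.3%) were past 2-fold higher and 3 (3.90%) past 2-fold lower, beside 4.1% and 4.54% of all 23655 probe sets that passed. These are counts of genes that passed the filter, and a gene could pass it through the siCPEB1 array alone: Vamp1 and Rph3a had siControl signals below the array median. The other 31 were at or above the median in both arrays, and 5 of them were past 2-fold higher and 1 past 2-fold lower, beside 2.69% and 3.17% of the 10709 genes that reached the median in both. The genes past 2-fold came from the synaptotagmins, the vesicle proteins and the SNARE proteins, and no Rab, active zone or endocytosis gene was among them. Only 4 Rab, 2 active zone and 3 endocytosis genes passed. With 4.56% and 3.91% of all genes past 2-fold higher and lower, so few genes cannot show a difference between roles.

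**Figure D1:**
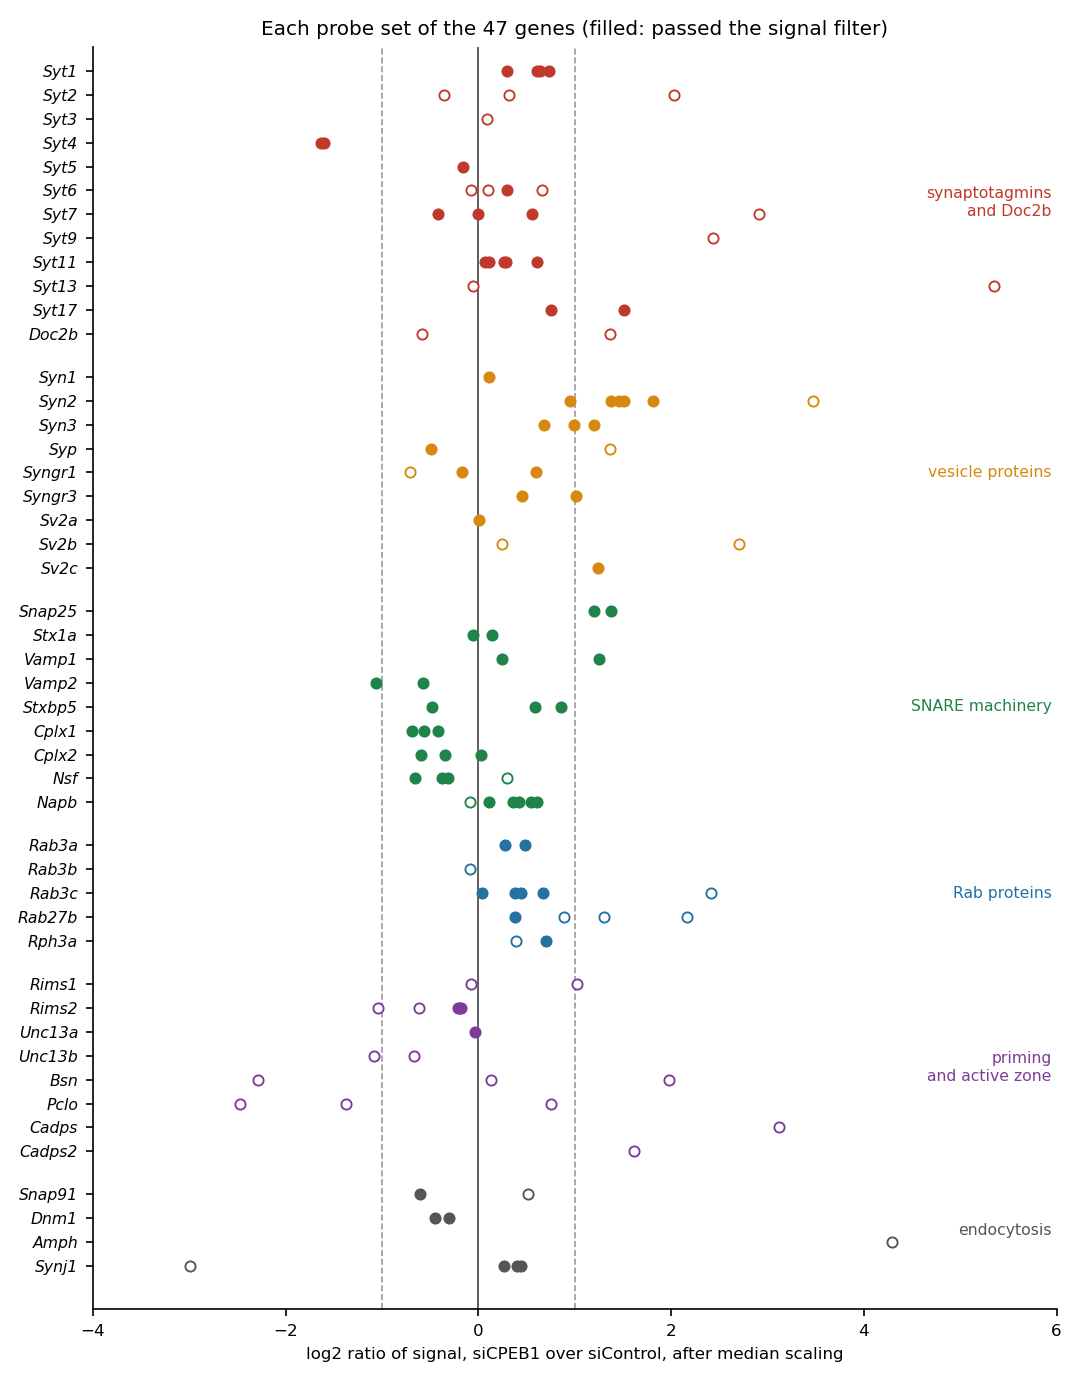
Each row is 1 of the 47 genes, grouped by role, and each point is 1 probe set placed at its log2 ratio of siCPEB1 over siControl, with probe sets that did not pass the signal filter drawn open and dashed lines at 2-fold. Among the filled points, both of Syt4 lie left of -1, both of Snap25 and 4 of 5 of Syn2 lie right of 1, and the Rab genes lie between 0.04 and 0.70.

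Most synaptotagmins are membrane proteins with a pair of C2 domains, which in some of them bind calcium and phospholipids. Doc2b is a soluble protein with similar domains. Syt4 is a synaptotagmin of secretory granules whose first C2 domain lacks a residue needed to bind calcium. Its first probe set had a signal of 347 in siCPEB1 and 1049 in siControl, and its other probe set had 288 and 849, with siCPEB1 first. Syt4 was 3.11-fold lower at the first (log2 ratio -1.64) and 3.04-fold lower at the other (-1.60). Both probe sets thus gave nearly the same ratio. Among the 2309 brightest genes that passed (mean signal of 662 or more), 2.12% were past 2-fold lower, and Syt4 had the 6th lowest ratio.

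Syt17, also known as B/K protein, has C2 domains but no membrane-spanning segment. It had a signal of 343 in siCPEB1 and 117 in siControl at its brighter probe set, which was 2.85-fold higher (log2 ratio 1.51). Its other probe set had 85.9 in siCPEB1 and 49.6 in siControl (0.75) and did not reach 2-fold, so the size of the difference depended on the probe set. Syt1, the calcium sensor of fast synchronous release, had 4 probe sets that all passed. The signals were 923, 226, 164 and 48.3 in siCPEB1, against 590, 141, 130 and 28.3 in siControl in the same order of probe sets. All 4 were higher in siCPEB1 by less than 2-fold, with ratios of 0.29 to 0.73. Syt4 and Syt1 therefore had ratios of opposite sign on the same arrays, at every probe set of each.

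Syt11, a synaptotagmin that does not bind calcium and acts in membrane recycling, had 5 probe sets that passed, with ratios of 0.07 to 0.61. Syt7, a slower sensor of high calcium affinity, had 3 passing probe sets, with ratios of 0.00 and 0.56 at the brighter ones. At the remaining probe set Syt7 had 18.2 in siCPEB1, below the array median, and 23.7 in siControl. It is given there as at least 1.12-fold lower, so the probe sets did not share a sign. Syt6 had 116 in siCPEB1 and 91.6 in siControl (0.30), and Syt5 had 99.7 in siCPEB1 and 109 in siControl (-0.16). Both values are smaller in size than the SD between probe sets of 1 gene given below, which does not contain the spread between cultures. The other 5 genes of this role did not pass. Syt2, the fast sensor of brainstem and neuromuscular synapses, had 12.4 in siCPEB1 and 15.4 in siControl. Syt3 had 16.5 and 15.1, and Syt13, a member that lacks calcium binding, had 7.44 and 7.51, siCPEB1 first. Syt9 had 20.5 in siCPEB1 and 3.71 in siControl, and Doc2b, a sensor of high calcium affinity, had 6.70 and 2.52. All 5 lay below the median of both arrays at the probe set that represents them, and no fold is given.

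**Figure D2:**
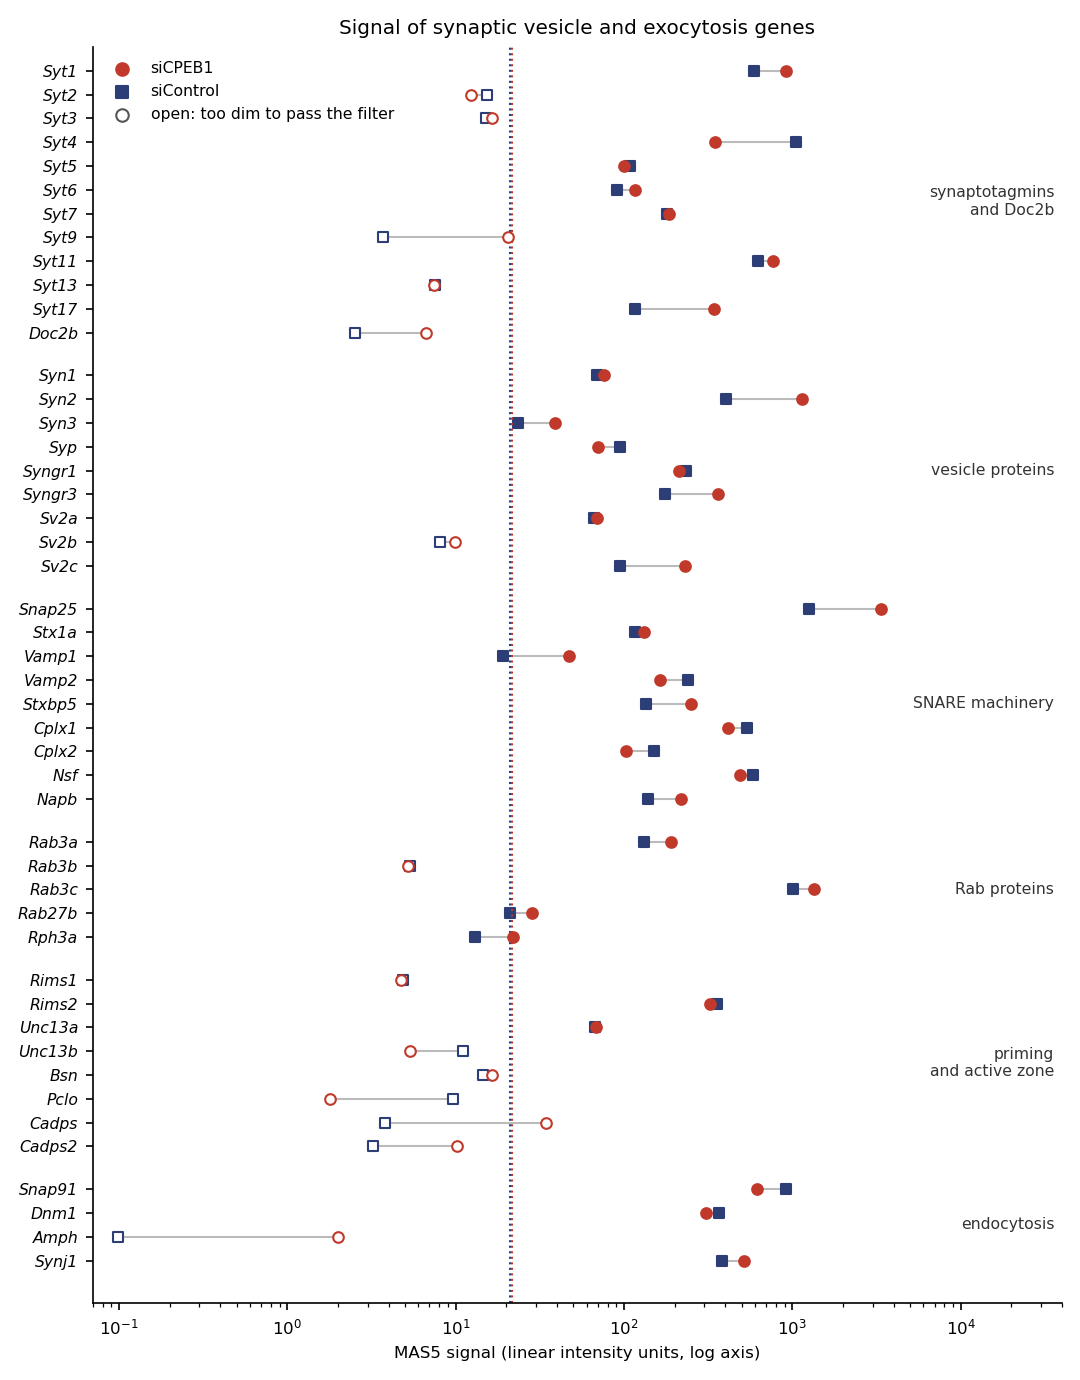
Signals of the representative probe set of each gene on a log axis, with siCPEB1 as red circles and siControl as blue squares, grouped by role, open symbols for genes that did not pass the filter, and dotted lines at the array medians. The siCPEB1 symbol lies far to the right of the siControl symbol for Snap25 (3373 against 1260.7) and Syn2 (1139.8 against 403.6), and far to the left for Syt4 (347 against 1049).

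The proteins of the vesicle membrane and surface gave 3 of the 6 genes past 2-fold higher, of 8 genes that passed, and none past 2-fold lower. The 3 make 37.5% of the 8, beside 4.56% of all genes past 2-fold higher and 3.91% past 2-fold lower. The synapsins coat the cytoplasmic face of the vesicle and tether it in the reserve pool. Syn2 encodes synapsin II. Its 5 passing probe sets had signals of 1139.8, 1016, 935, 890.0 and 64.5 in siCPEB1, against 403.6, 282, 351, 304 and 32.4 in siControl in the same order. Every siCPEB1 signal was above its siControl partner, by 1.94-fold at the dimmest of the 5 probe sets and by 2.59-fold to 3.50-fold at the others. The representative probe set was 2.75-fold higher (log2 ratio 1.46). Of the 2309 brightest genes, 0.953% were past 2-fold higher, and Syn2 had the 4th highest ratio among them.

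Syn3, synapsin III, is the synapsin of early neuronal development. It had 38.8 in siCPEB1 and 23.5 in siControl at its representative probe set (log2 ratio 0.68), 51.6 and 21.9 at a probe set of the _s_at type, which can detect more than 1 transcript (1.20), and 27.1 and 13.2 at the remaining one, where the siControl signal was below the median (at least 1.25-fold). All 3 had the higher signal in siCPEB1, and 1 of them was past 2-fold. Syn1, synapsin I, had 76.5 in siCPEB1 and 69.0 in siControl at its 1 passing probe set (0.11). The synapsin genes thus did not move alike on these arrays, with Syn2 past 2-fold and Syn1 at a ratio of 0.11.

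The promoters of Syn2, Syn1, Sv2c and Vamp1 are shown because Syn2, Sv2c and Vamp1 are the genes past 2-fold higher that matched the promoter table, and Syn1 is a synapsin that was not past 2-fold. Snap25, Syt17 and Syngr3, also past 2-fold higher, did not match the table, and their promoters were not analysed here. Each is the 250 bases before the annotated start, 5' to 3' on the gene's strand, from the RefSeq annotation of GRCm38.p6, and capitals mark a GC box (GGGCGG, on either strand) or, in Syn1, a CRE (TGACGTCA).
Syn2 (chr6:115134652-115134901, plus strand): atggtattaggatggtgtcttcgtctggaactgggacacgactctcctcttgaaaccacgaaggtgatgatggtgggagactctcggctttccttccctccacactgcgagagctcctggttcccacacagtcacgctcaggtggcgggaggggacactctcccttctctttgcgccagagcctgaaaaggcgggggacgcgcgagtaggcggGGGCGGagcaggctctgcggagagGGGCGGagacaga
Sv2c (chr13:96132578-96132827, minus strand): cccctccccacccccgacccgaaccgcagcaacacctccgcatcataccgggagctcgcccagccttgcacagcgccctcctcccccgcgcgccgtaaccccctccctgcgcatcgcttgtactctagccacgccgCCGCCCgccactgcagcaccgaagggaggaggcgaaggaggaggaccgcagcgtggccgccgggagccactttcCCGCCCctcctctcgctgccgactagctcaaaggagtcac
Vamp1 (chr6:125215331-125215580, plus strand): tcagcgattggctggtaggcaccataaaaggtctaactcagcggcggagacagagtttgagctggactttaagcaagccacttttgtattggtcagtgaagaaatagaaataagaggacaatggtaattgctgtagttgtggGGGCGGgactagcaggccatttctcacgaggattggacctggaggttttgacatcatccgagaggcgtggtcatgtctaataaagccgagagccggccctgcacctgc
Syn1 (chrX:20920919-20921168, minus strand): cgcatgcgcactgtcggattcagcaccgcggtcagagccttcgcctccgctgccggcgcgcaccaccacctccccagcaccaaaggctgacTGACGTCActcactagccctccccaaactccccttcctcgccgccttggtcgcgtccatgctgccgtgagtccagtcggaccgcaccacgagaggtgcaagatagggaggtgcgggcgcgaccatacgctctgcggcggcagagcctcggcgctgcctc
The Syn2 and Sv2c windows hold 2 GC boxes each and the Vamp1 window holds 1, and none of these 3 holds the CRE. Of the 47 genes, 35 matched the promoter table with 47 windows. The GC box stood in 28 of these windows (59.6%), beside 32.7% of all 32851 windows of the same length. The genes with a GC box also include Syt1, Syp, Stx1a, Rab3a and Snap91, none of which was past 2-fold. An E-box (CACGTG) stood in 6 windows (12.8%, beside 6.02% of all), a TATA box (TATAAA, on either strand) in 3 (6.38%, beside 12.4%) and a CRE in the Syn1 window alone (2.13%, beside 1.55%). A match describes the letters of the window and does not show that a factor binds there.

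The SV2 proteins are glycosylated membrane proteins of the vesicle that resemble transporters. Sv2c, which also serves as an entry receptor for a botulinum neurotoxin, had 230 in siCPEB1 and 94.2 in siControl at its 1 probe set, which was 2.37-fold higher (log2 ratio 1.25). Sv2a, the binding protein of the antiepileptic drug levetiracetam, had 69.0 in siCPEB1 and 66.6 in siControl (0.01), and Sv2b did not pass, with 9.90 in siCPEB1 and 8.13 in siControl. Of the 3 SV2 genes, the difference past 2-fold was thus seen at Sv2c, and it rests on 1 probe set.

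Synaptogyrins and synaptophysin are proteins that cross the vesicle membrane several times. Syngr3 had 363 in siCPEB1 and 175 in siControl at its brighter probe set, just past the threshold at 2.02-fold (log2 ratio 1.01), and 122 in siCPEB1 and 86.2 in siControl at the other (0.46). Syngr1 had ratios of -0.17 and 0.60 at its 2 probe sets. Syp, synaptophysin, which binds the vesicle SNARE and is widely used as a vesicle marker, had 69.7 in siCPEB1 and 95.1 in siControl (-0.49). The marker protein's gene thus had the lower signal in siCPEB1 while Syn2, Sv2c and Syngr3 had the higher one, so the vesicle proteins had ratios of both signs.

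All 9 SNARE genes passed, and 2 (22.2%) were past 2-fold higher, beside 4.56% of all genes that passed. Of the 2, Vamp1 passed with a siControl signal below the array median. Snap25, which encodes a SNARE protein of the plasma membrane, had 3373 in siCPEB1 and 1260.7 in siControl at its brighter probe set, and 105 in siCPEB1 and 44.4 in siControl at the other. It was 2.60-fold and 2.29-fold higher (log2 ratios 1.38 and 1.20), so the probe sets shared both sign and size. Its ratio was the 8th highest among the 2309 brightest genes. Stx1a, syntaxin 1A, is its partner in the plasma membrane. Stx1a had 132 in siCPEB1 and 116 in siControl at one probe set (0.14), and 370 in siCPEB1 and 375 in siControl at the other, of the _x_at type (-0.06). On these arrays Snap25 was past 2-fold and Stx1a was near a ratio of 0.

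**Figure D3:**
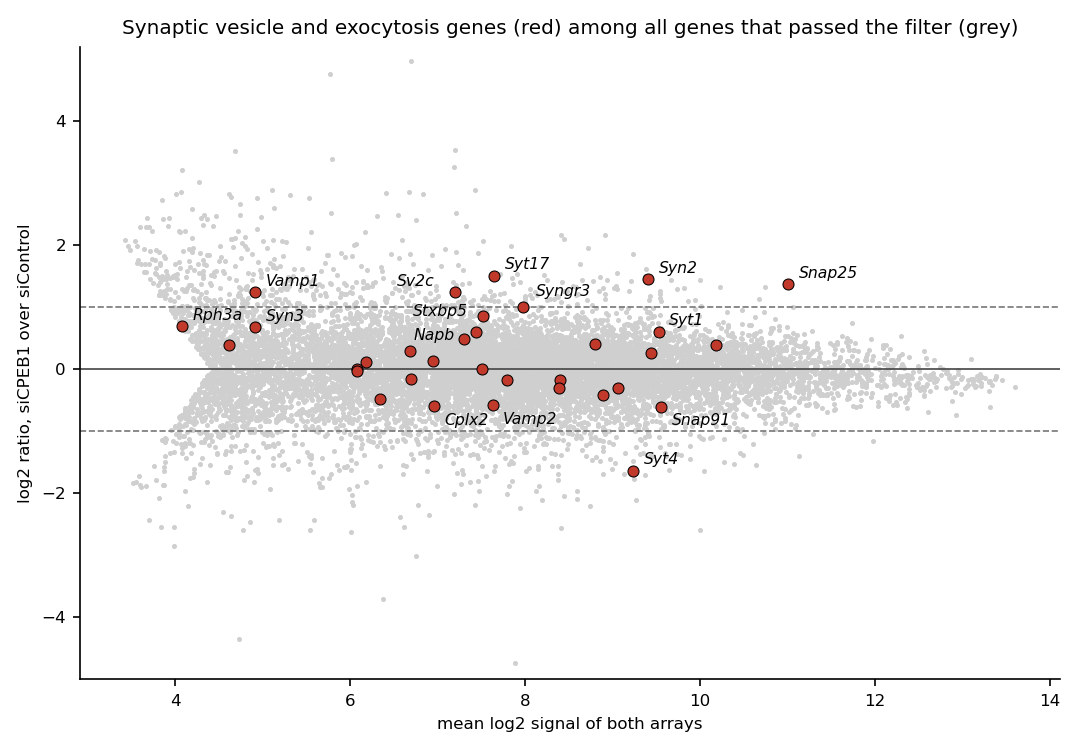
Log2 ratio of siCPEB1 over siControl against the mean log2 signal of both arrays, for the 11546 genes that passed the filter (grey) and the 33 genes of the set among them (red), with dashed lines at 2-fold. Snap25, Syn2 and Syt4 lie at signals where few grey points pass the dashed lines, whereas Vamp1 lies among the 2310 dimmest genes, of which 12.5% were past 2-fold higher.

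Vamp1 and Vamp2 encode synaptobrevins, the SNARE proteins of the vesicle. Vamp1 had 47.1 in siCPEB1 and 19.3 in siControl at its representative probe set (log2 ratio 1.25), and 24.9 in siCPEB1 and 20.5 in siControl at the other (0.24). Both siControl signals were below the array median, so the first is given as at least 2.18-fold higher. Of the 2310 dimmest genes that passed, to which Vamp1 belongs, 12.5% were past 2-fold higher. Vamp2 had 165 in siCPEB1 and 239 in siControl at its representative probe set (-0.58), and 40.3 in siCPEB1 and 81.9 in siControl at the other, which was 2.09-fold lower (-1.06). The paired genes thus had ratios of opposite sign at every probe set that passed, and for each the size differed between its probe sets.

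The cofactors had ratios of both signs. Complexins bind the assembled SNARE complex and hold it until calcium enters. Cplx1 had ratios of -0.69, -0.56 and -0.42 at 3 probe sets, and its representative one had 416 in siCPEB1 and 540.3 in siControl. Cplx2 had 103 in siCPEB1 and 150.1 in siControl (-0.59), with -0.34 and 0.03 at the other 2 probe sets. Nsf, the ATPase that takes SNARE complexes apart after fusion, had ratios of -0.37 and -0.31 at its brighter probe sets. At its remaining passing probe set Nsf had 14.7 in siCPEB1, below the array median, and 22.6 in siControl. That difference is given as at least 1.07-fold lower. Napb, the brain form of its adaptor SNAP, had 5 probe sets with ratios of 0.11 to 0.61, all of the other sign. Stxbp5, tomosyn, which competes with the vesicle SNARE and limits priming, had 251 in siCPEB1 and 135 in siControl at one probe set (0.86), 48.0 and 31.0 at another (0.59), and 102 and 138 at the remaining one (-0.49), with siCPEB1 first. Its probe sets differed in sign, and no single direction can be given for Stxbp5.

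Rab3 proteins are small GTPases that bring vesicles to the release site, Rab27b serves secretory granules, and rabphilin, encoded by Rph3a, is an effector of both. At the representative probe set the 4 genes of this role that passed had ratios above 0, as had 50.5% of all genes that passed, and none of the 4 was past 2-fold. The ratios of Rab3a, Rab3c and Rab27b were 0.38 to 0.48, and Rph3a has only a bound. Rab3c had 1349.6 in siCPEB1 and 1006 in siControl (log2 ratio 0.38), 890.0 and 843 at a second bright probe set (0.04), and ratios of 0.67 and 0.45 at the other 2. Rab3a had 189 in siCPEB1 and 132 in siControl (0.48), with 0.28 at a probe set of the _x_at type. Rph3a had 21.9 in siCPEB1 and 13.1 in siControl, and because the siControl signal was below the median it is given as at least 1.01-fold higher. Rab27b passed through a probe set of the _x_at type alone, with 28.4 in siCPEB1 and 21.2 in siControl (0.39). Rab3b did not pass, with 5.19 in siCPEB1 and 5.37 in siControl.

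The priming and active zone proteins set where and when a vesicle can fuse, and 6 of the 8 genes did not pass. Rims2, a RIM protein that binds Rab3 on the vesicle and anchors calcium channels, had 323 in siCPEB1 and 355 in siControl (log2 ratio -0.18), with -0.19 and -0.22 at its other passing probe sets. Unc13a, which encodes the priming factor Munc13-1, had 67.9 in siCPEB1 and 67.5 in siControl (-0.03). Both lay well inside 2-fold. Rims1 had 4.71 in siCPEB1 and 4.84 in siControl, and Unc13b, Munc13-2, had 5.35 and 11.1. The large scaffold genes Bsn and Pclo, bassoon and piccolo, had 16.4 and 1.80 in siCPEB1, against 14.5 and 9.70 in siControl. These 4 genes were below the array median in both arrays at their representative probe sets. Cadps, which encodes the dense-core vesicle priming protein CAPS1, had 34.3 in siCPEB1 and 3.84 in siControl. Its siControl signal was below the 25th percentile of that array, so Cadps was left out of the counts and can be given only as at least 1.58-fold higher. Cadps2 had 10.2 in siCPEB1 and 3.22 in siControl, below the median in both.

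The endocytosis genes also had ratios of both signs, none past 2-fold. Snap91, which encodes the clathrin assembly protein AP180, had 620.4 in siCPEB1 and 916 in siControl at its 1 passing probe set (log2 ratio -0.60). Dnm1, the neuronal dynamin that cuts the vesicle neck, had ratios of -0.31 and -0.45. Synj1, synaptojanin, the phosphatase that helps to strip the clathrin coat, had 518 in siCPEB1 and 381 in siControl (0.40), with 0.27 and 0.44 at its other 2 probe sets. Amph, amphiphysin, did not pass, with 2.01 in siCPEB1 and 0.0993 in siControl.

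The agreement of probe sets gave a measure of spread within the arrays. For 23 of the 47 genes 2 or more probe sets passed, 67 in all, and probe sets of 1 gene differed with a pooled SD of 0.32, beside 0.37 over 5533 genes of the array. All probe sets were above 0 for 12 of the 23 (52.2%, beside 30.7% of all such genes), all were below 0 for 6 (26.1%, beside 32.8%), and the remaining 5, Syt7, Syngr1, Stx1a, Stxbp5 and Cplx2, had both signs. The only Syt7 ratio below 0 came from the probe set that is given as a bound. Snap25 was the only one with every passing probe set past 2-fold higher and Syt4 the only one with every one past 2-fold lower, which is 4.35% of the 23 each, beside 1.12% and 1.46% of all such genes. This spread holds real differences between transcripts of 1 gene as well as error, and it does not contain the spread between cultures.

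Other genes of the same machinery or with related domains gave the setting. The list holds further C2 domain proteins, vesicle proteins, SNARE proteins and cofactors, secretory Rabs, active zone proteins, the exocyst, which tethers vesicles to the plasma membrane, and endocytosis proteins. Of 139 such genes on the array, 114 passed, with a median ratio of -0.02. Of the 114, 1 was past 2-fold higher (0.877%) and 4 were past 2-fold lower (3.51%), beside 4.56% and 3.91% of all genes. The genes past 2-fold were the synaptogyrin Syngr4, with 50.9 in siCPEB1 and 24.4 in siControl (1.02), and on the lower side Syt14, with 80.4 and 172 (-1.14), Dnajc5, which encodes the vesicle chaperone cysteine string protein, with 189 and 370 (-1.01), Rims3, with 48.0 and 99.2 (-1.09), and Rab3il1, an exchange factor for Rab3, with 10.2 and 21.4 (-1.11), siCPEB1 first. The siCPEB1 signal of Rab3il1 was below the array median, so it is given as at least 1.02-fold lower. All 9 exocyst genes and 32 of 35 further SNARE genes passed, and none was past 2-fold. Beside them, the 33 genes of the set that passed had a median of 0.27. With the array median required in both arrays the set had a median of 0.14 and the other exocytosis genes -0.03. With no filter these medians were 0.14 and -0.02. The 7 further C2 domain genes that passed had a median of -0.64, beside 0.27 for the 7 synaptotagmin genes that passed. They were Syt14, Esyt1, Esyt2, Esyt3, Doc2a, Dysf and Myof, of which only Syt14 carries a Syt symbol. Myof had 13.3 in siCPEB1, below the array median, and 21.7 in siControl, so it is given as at least 1.03-fold lower. The list of further C2 domain genes had the lowest median, and the other lists of further genes had medians of -0.04 to 0.06. The set and the lists were chosen with earlier results of these data known. They are described here as lists, and the differences between them were not tested.

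**Figure D4:**
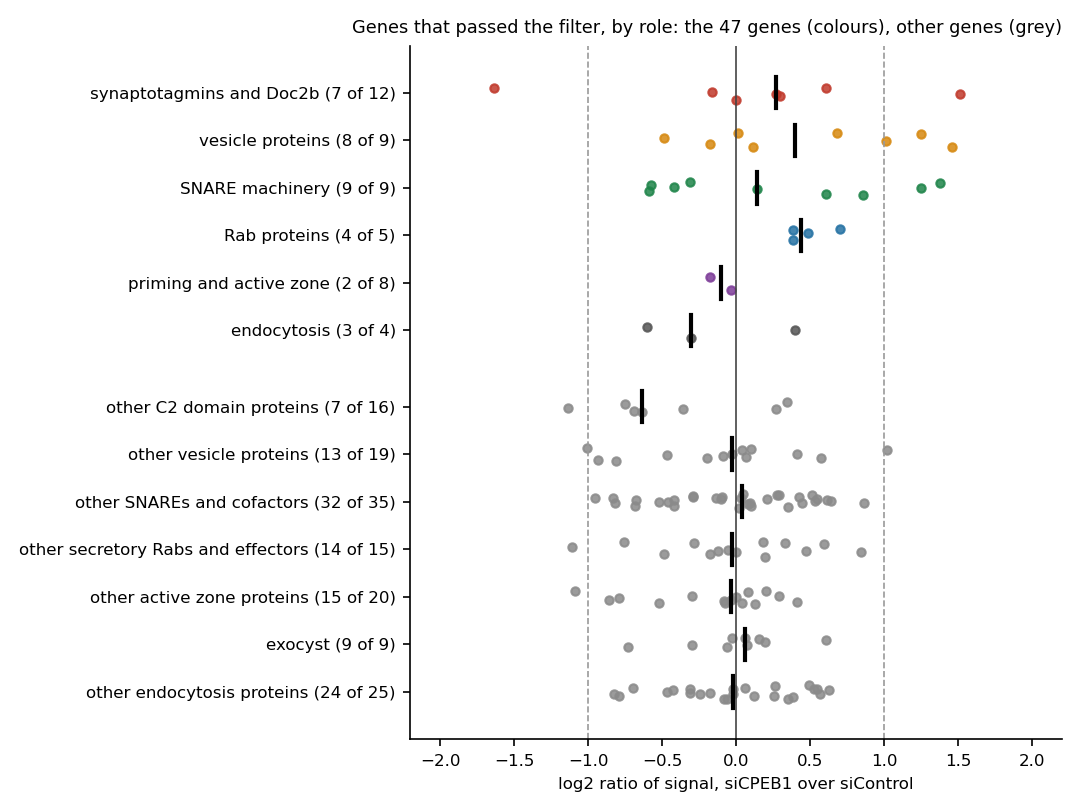
Log2 ratios of siCPEB1 over siControl of the genes that passed the filter, with 1 point for each gene, the 6 roles of the set above the 7 lists of other exocytosis genes, a vertical bar at each median and dashed lines at 2-fold. The medians of the vesicle proteins and the Rab proteins lie at 0.40 and 0.43, and that of the exocyst lies at 0.06. The Rab median counts Rph3a at 0.70, although its siControl signal was below the array median and it has only a bound of at least 1.01-fold.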

How the data were processed

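RNA of 1 siCPEB1 and 1 siControl culture of Neuro2a cells was measured on 1 array each. The authors deposited 1 intensity for each probe set, a linear signal that was not log-transformed. The submitters' processing notes name MAS5 and Affymetrix Expression Console with no version. The sources used here do not give the scaling target. Because MAS5 corrects for background and then scales the whole array, dim signals are uncertain in relative terms. No detection flags were used here.

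Of 45037 probe sets (64 control probe sets left out), 34945 had 1 gene symbol, 932 had several and 9160 had none listed. Each array was divided by its median, which removed a shift of 0.04 on the log2 scale, and 23655 probe sets passed the signal filter. A gene was represented by a passing probe set, by preference not of the _x_at or _s_at type, and then by the brightest. In bounds written as at least a fold, a signal below the array median was set at the median. The genes and lists were chosen with earlier results of these data known. Full values were given for genes with a passing probe set past 2-fold, the brightest gene of each role and genes whose probe sets differed by over 1 on the log2 scale. With 1 array per group no test was made, and the number of arrays limits the precision. Promoter sequences and coordinates came from RefSeq (GRCm38.p6). The alternatives were 4 other scalings (none, the 75th percentile, quantile, and loess with span 0.3), 3 other filters, a constant of 16 added to each signal, the mean of passing probe sets, leaving out _x_at and _s_at probe sets, and a threshold of 1.5-fold. The steps were tested on simulated data. Versions were Python 3.11.15, matplotlib 3.10.9, statsmodels 0.14.6, scipy 1.17.1, pandas 2.3.3 and numpy 2.4.6.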

Additional observations from a re-analysis of the deposited data

How the results depend on the processing

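No paired analysis was possible because each group holds 1 array, and no replicate could be left out. Under all 4 other scalings the same 6 genes were past 2-fold higher and Syt4 was past 2-fold lower. Syt4, Syt17, Syn2, Sv2c and Snap25 were past 2-fold under each of the 10 alternatives that keep the 2-fold threshold, whereas Syngr3 was so in 8 of 10 (lowest ratio 0.73) and Vamp1 in 6 of the 8 that gave it a value. The median ratio of the set lay between 0.14 and 0.33, and was 0.14 both with the median required in both arrays and with no filter. Among the genes chosen for full values by the rule above, no ratio changed sign. The other genes of the set were not followed individually under the alternatives. With 16 added to both signals, 4 of the 33 genes of the set were past 2-fold higher (Syngr3 and Vamp1 were not), as were 7 of its 77 probe sets. Of the 114 other exocytosis genes that passed, 0 and 1 were higher and lower. Of all 11546 genes, 263 and 267 were higher and lower, and Cpeb1 had a ratio of -2.59. With no filter, 12 and 3 of the 47 genes of the set and 27 and 9 of its 120 probe sets were higher and lower. So were 6 and 9 of the 139 other exocytosis genes and 2252 and 1820 of all 18161 genes. With the median required in both arrays, 288 of 10709 genes were higher. With the 75th percentile in 1 array and the median in the other, 5 and 1 of the 22 genes of the set were higher and lower. So were 0 and 2 of the 79 other exocytosis genes and 165 and 249 of all 7289 genes. At 1.5-fold, 11 and 3 of the 33 genes of the set and 25 and 7 of its 77 probe sets were higher and lower. So were 8 and 21 of the 114 other exocytosis genes and 1377 and 1401 of all 11546 genes. Vamp1 had a ratio of 0.80 with 16 added and 0.75 as the mean of its probe sets, and the means of Syt17 and Stxbp5 were 1.13 and 0.32. The lists of other exocytosis genes and of all genes were added to these alternatives after seeing the data. Low signal limits the 14 genes that did not pass, of which 13 were below the median in both arrays, where neither a change nor its absence can be read, and Cadps has only a bound.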
